A study of Cucumis melo with 12 samples.

Results

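Among the melon transcripts listed for seeds and radicles, 170 of 3256 carried an identifier starting with XLOC and no melon gene identifier; the other 3086 carried a MELO3C gene identifier of the melon genome. XLOC loci were taken as every identifier with that prefix in any of the 6 deposited lists, with no use of its value. RNA had been sequenced from 12 libraries of *Cucumis melo* var. Rochet Panal, 2 for each of 6 groups, which are SMOCK, SODL and SODH for seeds and RMOCK, RODL and RODH for 5-day-old radicles. Seeds were surface sterilized and immersed in water (mock) or in a suspension of the plant-associated bacterium *Bacillus velezensis* FZB42 at a low (ODL) or a high (ODH) dose, and the radicles emerged from seeds treated in the same way. Each list gave 1 value per identifier for its group, which combined both libraries, and it held selected identifiers only. There was therefore no replicate error, no test was possible, and every difference below is a description of 2 group values.

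The prefix XLOC is the one that transcript assemblers of the Cufflinks family give to a locus built from the reads themselves. Such loci can be long noncoding RNAs, transcripts of transposable elements, coding genes that the annotation lacks, or pieces of annotated genes and their antisense strand. Long noncoding RNAs often have low and tissue-restricted levels in plants, where several are known to act in chromatin silencing, in target mimicry of microRNAs and in responses to stress. The lists named no assembler and gave neither coordinates, strand, length nor coding potential for these loci, and 0 of the 170 matched the gene table used here. What kind of transcript each locus is was therefore not determined, and no sequence is printed. The methods of the study describe rRNA-depleted directional libraries for noncoding RNA, whereas the labels name polyadenylated RNA, and RNA without a poly(A) tail is not captured by poly(A) selection.

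Of the 170 XLOC loci, 99.4% were on a radicle list, close to the 96.5% of MELO3C identifiers. The mock radicle list held 169 XLOC loci, or 5.37% of its 3147 identifiers, the low-dose list 23, or 7.90% of 291, and the high-dose list 163, or 5.25% of 3106. Seed lists held 5 for mock, 4 for the low dose and 2 for the high dose, which is 3.27% of 153, 3.05% of 131 and 6.25% of 32 identifiers. By dose, 146 loci were on the high-dose radicle list and not on the low-dose list, 6 on the low-dose list and not on the high-dose list, and 17 on both. These 17 are 73.9% of the XLOC loci on the low-dose list and 10.4% of those on the high-dose list, against 86.9% and 7.92% for the 233 MELO3C identifiers on both. Only XLOC_030582 was on no radicle list. Where a list does not name a locus, its level is unknown and was not set to 0.

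The values are named FPKM in the deposited files but are not per length, because the same low values recur in many identifiers. Of the 48 XLOC loci above 0 and under 10 in mock radicles, 39 had a value shared with at least 1 other identifier, compared with 187 of 223 MELO3C identifiers. A total of 4 XLOC loci shared the value 0.549 within a set of 37 identifiers, and 4 shared 1.10 within a set of 46. Values are therefore given as a signal of unstated scale, which a longer transcript raises, and the order of values among loci is not an order of transcript abundance.

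XLOC loci had low listed values in mock radicles. The middle value was 22.3 for the 169 XLOC loci, with quartiles at 3.67 and 389.6, against 1779 for the 2978 MELO3C identifiers, with quartiles at 521.4 and 4061. Under 100 lay 114 XLOC loci, or 67.5%, against 18.3% of MELO3C identifiers, and 17 XLOC loci, or 10.1%, were listed at 0, against 6.31%. The distribution had a second part at high values, since 35 XLOC loci, or 20.7%, were at 1000 or more, against 65.9% of MELO3C identifiers. On the high-dose list the XLOC median was 135.0, with quartiles at 56.4 and 554.9, against 1176 for MELO3C identifiers. No XLOC locus was listed at 0 at the high dose, against 8 MELO3C identifiers. The low-dose list began higher, with XLOC values of 112.5 to 22361 and a median of 1003, against a median of 1828 for MELO3C identifiers. Its 23 loci had a median of 374.5 in mock radicles, against 22.3 for the 163 loci of the high-dose list.

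In radicles from high-dose seeds, most XLOC loci were listed above mock. Of 163 loci, 139 were above mock (85.3%) and 24 below it, whereas 36.4% of MELO3C identifiers on the same list were above mock. Differences were taken as log2((treated + 1)/(mock + 1)). Above a log2 of 1 lay 132 XLOC loci, or 81.0%, where MELO3C identifiers had 28.5%, and above 2 lay 108, or 66.3%, against 18.5%. Below -1 lay 13 XLOC loci, or 7.98%, against 25.8%. Just inside these limits were XLOC_038781 at 1.02 and XLOC_045812 at -1.04, and just outside were XLOC_011366 at 0.95 and XLOC_038362 at -0.99. Over the 148 XLOC loci above 0 in both groups the median was 2.60, with quartiles at 1.20 and 3.27, against -0.80 for 2749 MELO3C identifiers. The lists are themselves a selection, whose smallest absolute log2 was 0.64 for XLOC loci and 0.61 for MELO3C identifiers, so these shares describe listed identifiers and not all transcripts of the radicle. Identifiers with low mock values can hardly be listed below mock. At 0 in mock were 9.20% of XLOC loci, against 6.32% of MELO3C identifiers. Above 0 and under 10 were 29.4%, against 7.58%, and all of these were above mock. The contrasts given so far are therefore partly set by the selection. Over the 2897 identifiers of the list above 0 in both groups, of which 2749 were MELO3C, the median log2 was -0.79. The MELO3C share above this median is therefore largely set by the scaling itself. Relative to that median, 87.1% of XLOC loci were above mock, against 51.2% of MELO3C identifiers, and after quantile normalization 60.1%, against 30.6%. Quantile normalization left 41 XLOC loci above a log2 of 1 and 5 below -1, and scaling to the median left 139 and 2.

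**Figure D1:**
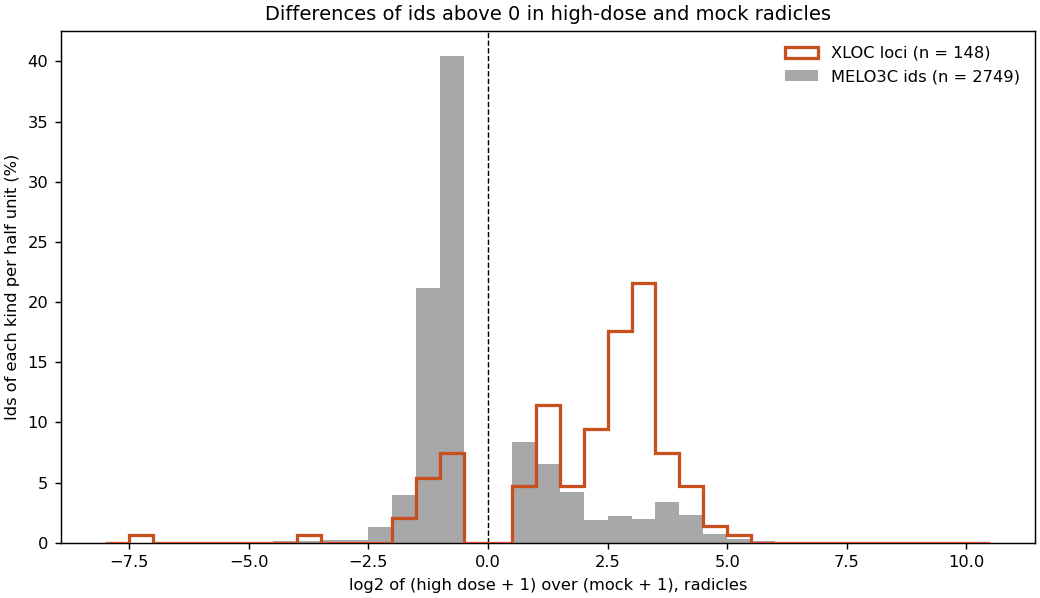
Distribution of log2((high dose + 1)/(mock + 1)) in radicles for the 148 XLOC loci (outline) and the 2749 MELO3C identifiers (filled) above 0 in both groups, as a percentage of each kind in bins of 0.5. The gap around 0 is where neither kind is listed; most XLOC loci lie to the right of it, with a median of 2.60, and most MELO3C identifiers to the left, with a median of -0.80. All 48 XLOC loci and all 223 MELO3C identifiers above 0 and under 10 in mock lie to the right, where selection leaves hardly any other direction.

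The direction of a listed identifier went with its value in mock, and XLOC loci and MELO3C identifiers differed in that value. Each of the 15 XLOC loci listed at 0 in mock and each of the 48 above 0 and under 10 was higher at the high dose, but so were all 186 and all 223 MELO3C identifiers of these levels. An identifier at such a level can hardly be listed in any other direction. From 10 to under 100 in mock, all 47 XLOC loci were higher, against 112 of 132 MELO3C identifiers (84.8%). From 100 to under 1000, 12 of 18 XLOC loci were higher (66.7%), against 202 of 461 (43.8%). At 1000 and above, 17 of 35 were higher (48.6%), against 347 of 1941 (17.9%). If the XLOC loci of each level had the MELO3C share of that level, 71.8% would lie above mock in place of 85.3%, or 59.4% when levels were taken from the larger of both values. This weighting was chosen after the values were seen. The XLOC share was the larger in each of these 3 levels from 10 upward, on 1 value per group, but not from 5000 to under 20000, where 14.3% of XLOC loci and 18.4% of MELO3C identifiers were higher.

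**Figure D2:**
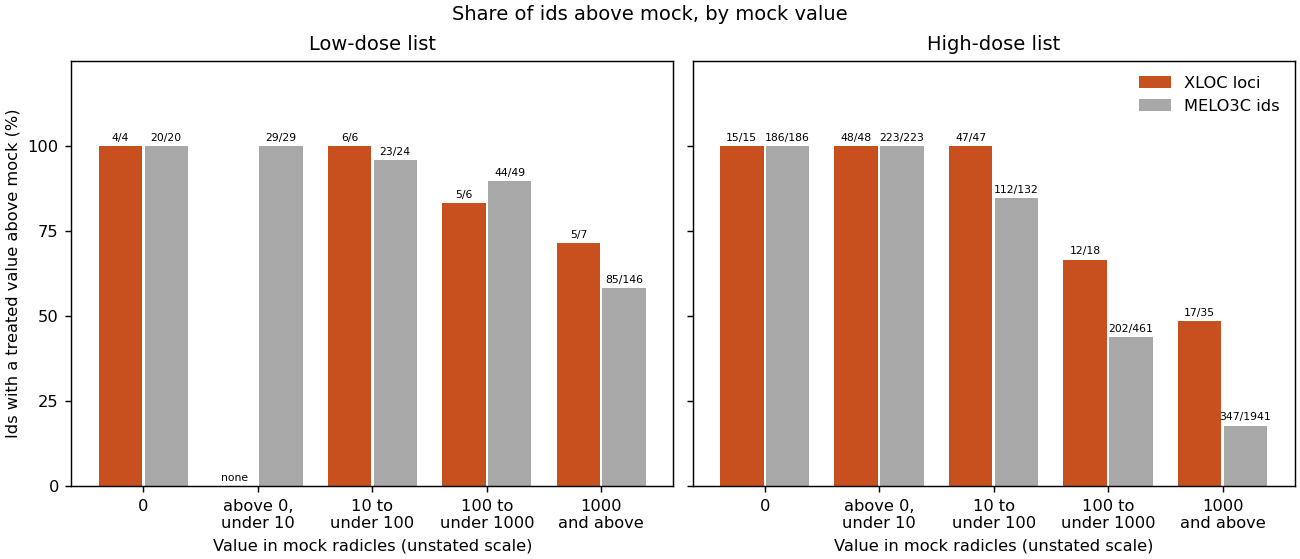
Share of XLOC loci (left bar of each pair) and MELO3C identifiers (right bar) with a treated value above mock, in percent, by their value in mock radicles, for the low-dose and the high-dose list; the numbers above mock and in all stand over the bars. Both kinds are at 100% under 10 in mock, and at 1000 and above on the high-dose list 17 of 35 XLOC loci were higher, against 347 of 1941 MELO3C identifiers.

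The loci highest over mock, among those above 0 in both groups, had mock values of a few units. XLOC_049199 had 61.4 at the high dose and 0.549 in mock, a log2 of 5.33. XLOC_049103 had 69.8 and XLOC_036207 had 69.7 at the high dose, and both had 1.65 in mock, for a log2 of 4.74 each. Both mock values, 0.549 and 1.65, recur in other identifiers and are among the lowest above 0, so these ratios rest on the smallest steps of the scale.

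XLOC_016291 had 55.8 at the high dose and 1.65 in mock, and XLOC_010435 had 49.6 and 1.90. XLOC_035423 had 95.2 at the high dose and 3.67 in mock, a log2 of 4.36. XLOC_022998 had 75.6 and XLOC_004324 had 71.1 at the high dose, each with 3.31 in mock. The set of 10 was completed by XLOC_014336, with 24.0 at the high dose and 0.549 in mock (a log2 of 4.01 that became -0.30 after quantile normalization), and by XLOC_031522, with 76.9 and 3.86. After quantile normalization only XLOC_049199, at 1.12, and XLOC_035423, at 1.08, stayed above a log2 of 1. The others of the set then lay from -0.30 to 0.94. All 10 high-dose values were under 100, and none of these loci was on the low-dose list. That absence is usual, since 10.4% of XLOC loci and 7.92% of MELO3C identifiers of the high-dose list were on both. The lowest XLOC value of the low-dose list was 112.5. Over the 48 loci above 0 and under 10 in mock, high-dose values ran from 16.2 to 95.2 with a median of 53.0, and over the 47 loci from 10 to under 100 they ran from 59.5 to 456.8 with a median of 152.0.

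No ratio is given for loci listed at 0 in mock. Their high-dose values ran from 12.3 to 965.5 with a median of 24.3 over 15 XLOC loci, against 10.1 to 1799 with a median of 18.1 over 186 MELO3C identifiers. XLOC_030088 had 965.5 at the high dose, the highest of the 15, and was not on the low-dose radicle list. XLOC_020094 followed with 162.1, XLOC_049186 with 44.8, XLOC_009866 with 39.7 and XLOC_029860 with 35.4. All but XLOC_030088 and XLOC_020094 were under 50, which is 13 of the 15, against 176 of the 186 MELO3C identifiers. The lowest high-dose value of any identifier listed at 0 in mock was 10.1.

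A few XLOC loci had lower values in high-dose radicles. XLOC_031706 had 2.95 at the high dose and 625.0 in mock, or 0.471% of mock and a log2 of -7.31. No other XLOC locus lay as far below mock, and the lowest MELO3C identifier of this list above 0 in both groups was at -4.85. The 8 MELO3C identifiers listed at 0 at the high dose are not in this comparison. Their mock values reached the level of 100 to under 1000, so XLOC_031706 is not shown to be the lowest of all identifiers on the list. XLOC_006243 had 122.7 at the high dose and 1888 in mock, or 6.50% of mock. These are the only XLOC loci below -2, and they stand apart from the rest in the plot of treated against mock values. Without values per library it is not known whether either difference was present in both libraries of a group.

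The next 8 loci lay between 29.6% and 45.7% of mock. XLOC_012801 had 106.6 at the high dose and 359.8 in mock, and XLOC_035826 had 114.7 and 337.6. XLOC_020406 had 748.1 at the high dose and 2314 in mock, or 32.3% of mock. XLOC_042026 had 4067 at the high dose and 10350 in mock, or 39.3% of mock. XLOC_036688, XLOC_043581, XLOC_026150 and XLOC_050347 lay close together, from 44.8% to 45.7% of mock. Over all 24 lower loci the median log2 was -1.05, against -0.93 for lower MELO3C identifiers above 0 in both groups, so apart from XLOC_031706 and XLOC_006243 lower XLOC loci lay about as far below mock as lower MELO3C identifiers.

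**Figure D3:**
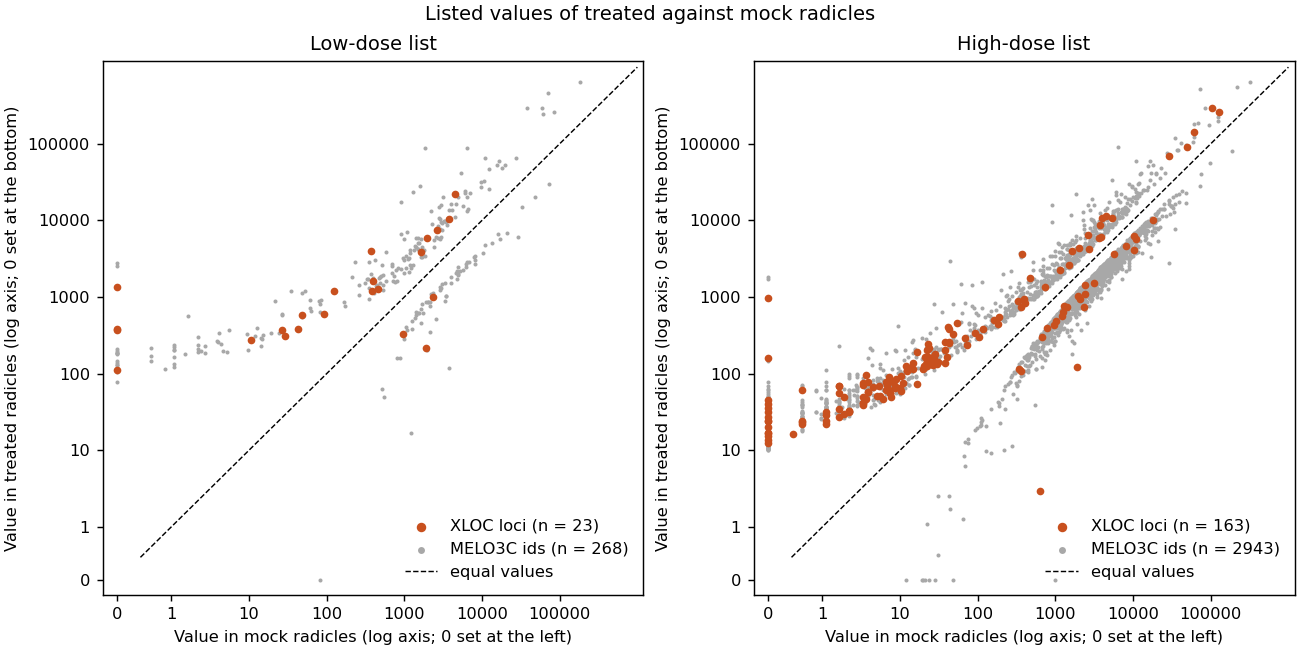
Listed value in treated radicles against the value in mock radicles, both on log axes with 0 drawn at the edge, for the low-dose list (23 XLOC loci and 268 MELO3C identifiers) and the high-dose list (163 and 2943); the dashed line marks equal values. XLOC loci crowd along the upper band at low mock values, and XLOC_031706 (2.95 at the high dose and 625.0 in mock) lies far under the lower band.

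The loci with the largest listed values are described as a separate set, chosen after the values were seen. The 5 XLOC loci above 20000 in mock radicles were all higher at the high dose, against 22 of 62 MELO3C identifiers (35.5%). XLOC_006893 had 289240 at the high dose and 104220 in mock, a log2 of 1.47. XLOC_037886 had 261673 at the high dose and 127159 in mock, a log2 of 1.04 that became -0.12 after quantile normalization. XLOC_008252 had 142695 and 61620, XLOC_048762 had 92065 and 49230, and XLOC_005663 had 69709 and 28764, where the first value of each is that at the high dose. Their ratios to mock were close to one another, from 1.87 to 2.78 on the deposited values. None was on the low-dose list, which held 10.4% of the XLOC loci of the high-dose list. After quantile normalization the log2 was 0.90 in XLOC_005663, but 0.37 in XLOC_008252, 0.34 in XLOC_006893 and 0.15 in XLOC_048762.

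Just under them, from 5000 to 20000 in mock, 6 of 7 XLOC loci were lower at the high dose, as were most MELO3C identifiers of this level, of which 18.4% were higher. XLOC_035971 had 10011 at the high dose and 18160 in mock, and XLOC_020301 had 5753 and 10901. XLOC_037717 had 6228 at the high dose and 10400 in mock, and XLOC_025222 had 4596 and 8220. Relative to the median log2 of the list 4 of the 7 were lower, because XLOC_037717 (at 0.05) and XLOC_032376 (at 0.14) turned to above mock. The locus above mock on the deposited values was XLOC_038781, with 10780 at the high dose and 5312 in mock. From 1000 to under 5000, 11 of 23 XLOC loci were higher, against 231 of 1369 MELO3C identifiers (16.9%).

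These 5 loci set the sum of XLOC values. The values of all 163 loci summed to 1003019 at the high dose and 502700 in mock. The 5 loci held 85.3% of the XLOC sum at the high dose and 73.8% in mock, and their sum was 2.31 times that in mock. Without them the ratio of the sums was 1.12. Over the 2943 MELO3C identifiers the ratio was 1.03, but with none of their highest values left out, so these ratios are of unlike sets. Counts and sums therefore describe different loci, since most of the loci that were higher added little to the sum.

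In radicles from low-dose seeds, 20 of 23 XLOC loci were above mock and all 20 were above a log2 of 1 (87.0%). The low-dose list was mostly above mock in any case: 75% of its MELO3C identifiers were above mock and 73.1% were above a log2 of 1, and the XLOC share is near this background. Above a log2 of 2 lay 14 XLOC loci, or 60.9%, against 40.3%. The remaining 3 loci were below -1, or 13.0%, against 24.6%. At 1000 and above in mock, 5 of 7 XLOC loci were higher, against 85 of 146 MELO3C identifiers (58.2%), while from 100 to under 1000 the order was the opposite, with 5 of 6 (83.3%) against 44 of 49 (89.8%). With the MELO3C share of each level 83.5% of XLOC loci would lie above mock, or 79.1% with levels from the larger value. No XLOC locus of the low-dose list had a mock value above 0 and under 10, where 29 MELO3C identifiers did. Over the 266 identifiers of the low-dose list above 0 in both groups, of which 247 were MELO3C, the median log2 was 1.66. The MELO3C share above this median is again largely set by the scaling. Relative to that median, 60.9% of XLOC loci were above mock, against 53.4% of MELO3C identifiers, and after quantile normalization 73.9%, against 63.8%.

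A set of 6 loci was on the low-dose list and not on the high-dose list, and all were above mock. This was the direction of most identifiers of the low-dose list, with 75% of its MELO3C identifiers above mock. XLOC_032053 had 1363 and XLOC_000325 had 370.0 at the low dose, and both were listed at 0 in mock, where no lower value is possible. XLOC_022814 had 1215 at the low dose and 123.4 in mock, a log2 of 3.29. XLOC_034819 had 1625 at the low dose and 389.6 in mock, XLOC_040066 had 308.4 and 28.9 (below mock, at -0.24, after quantile normalization), and XLOC_025494 had 277.9 and 10.7. XLOC_032053 had the highest value of any XLOC locus listed at 0 in mock radicles, at either dose. Their high-dose values are not listed, so no difference between doses can be derived for them.

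The 17 loci on both lists show the doses side by side, and both comparisons use the same mock value, so that a shared direction is no independent result. Among the loci above mock, 3 had nearly the same value at both doses. XLOC_042293 had 374.5 in mock, 3960 with the low dose and 3683 with the high dose. XLOC_049624 had 1645 in mock, 3814 with the low dose and 3973 with the high dose. XLOC_047399 had 2637 in mock, 7453 with the low dose and 6355 with the high dose. The high dose differed from the low dose by a log2 of -0.10 in XLOC_042293, 0.06 in XLOC_049624 and -0.23 in XLOC_047399, while each was above mock by more than 1 at either dose.

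XLOC_005985 had the largest low-dose value, with 4464 in mock, 22361 with the low dose and 11239 with the high dose. XLOC_023447 had 3798 in mock, 10462 with the low dose and 8620 with the high dose, and XLOC_008156 had 1985, 5935 and 4405 in the same order. XLOC_019730 had 388.9 in mock, 1190 with the low dose and 946.9 with the high dose. In each of these the low-dose value was the highest of the 3 groups. XLOC_041198 had its highest value at the high dose, with 464.7 in mock, 1281 with the low dose and 1769 with the high dose.

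The doses differed most in XLOC_029860, XLOC_001569, XLOC_020094 and XLOC_005985, the last with a log2 of the high over the low dose of -0.99. XLOC_001569 had 26.8 in mock, 368.1 with the low dose and 131.5 with the high dose, for a log2 between the doses of -1.48. XLOC_029860 had 112.5 with the low dose and 35.4 with the high dose, and XLOC_020094 had 382.7 and 162.1, and both were listed at 0 in mock; after quantile normalization XLOC_029860 was below mock at the low dose, at -0.51. XLOC_029860, XLOC_001569 and XLOC_020094 are the 3 loci in which the doses differed by a log2 of more than 1. XLOC_001476 had 48.4 in mock, 579.7 with the low dose and 326.5 with the high dose, XLOC_023916 had 91.6, 592.5 and 343.6, and XLOC_040640 had 42.1, 378.3 and 252.4.

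Relative to the median log2 of the low-dose list, XLOC_049624, XLOC_041198, XLOC_023447, XLOC_047399, XLOC_008156 and XLOC_019730 lay below mock at the low dose, from -0.45 to -0.05.

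Lower loci on both lists were XLOC_006243, with 1888 in mock, 215.9 with the low dose and 122.7 with the high dose, XLOC_020406, with 2314, 1003 and 748.1, and XLOC_043581, with 954.7, 323.9 and 433.5. Of the 17 loci, 3 had a higher value at the high dose (XLOC_041198, XLOC_043581 and XLOC_049624) and 14 at the low dose, or 82.4%, compared with 71.7% of the 233 MELO3C identifiers on both lists. The median log2 of the high over the low dose was -0.43 for XLOC loci and -0.18 for MELO3C identifiers. The lists were selected separately and the scaling between doses is not stated, so this count is no measure of a stronger effect of the low dose. It was 13 of 17 after median ratio scaling and 10 of 17 after quantile normalization.

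**Figure D4:**
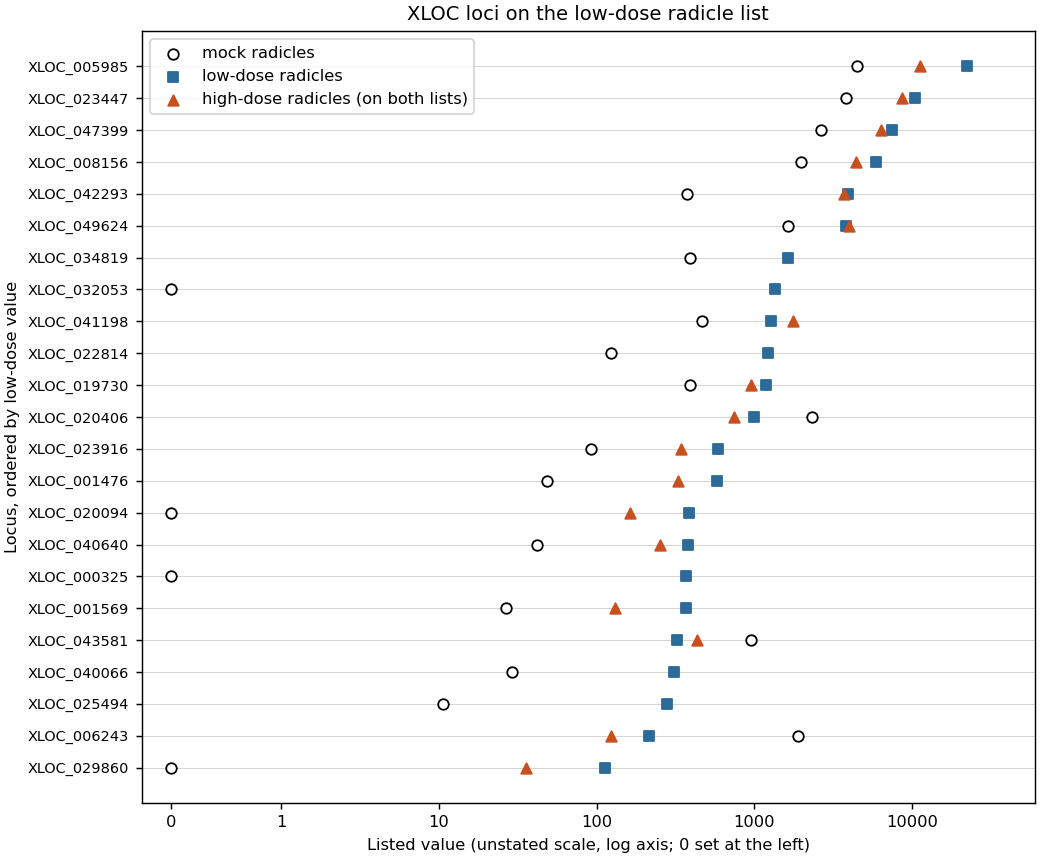
Listed values of the 23 XLOC loci on the low-dose radicle list, on a log axis with 0 drawn at the left, in mock (open circles), low-dose (squares) and high-dose radicles (triangles, for the 17 loci on both lists). Mock lies left of both doses except in XLOC_006243, XLOC_020406 and XLOC_043581, and the low-dose value exceeds the high-dose value in 14 of the 17.

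In seeds, 5 XLOC loci were listed, and no difference of either dose from mock could be derived for them. The mock list gave all 4 low-dose values again, equal within a relative tolerance of 1e-06, and likewise all 127 MELO3C values. At the high dose this held for 1 of 2 XLOC values and for 21 of 30 MELO3C values. In radicles it held for none. XLOC_047399 was the only XLOC locus on both seed dose lists, with 2705 after the high dose and 1759 after the low, a ratio of 1.54, and in the mock list its value equals that of low-dose seeds. In radicles the same locus had nearly the same value at both doses, with a log2 of the high over the low dose of -0.23. The scaling between doses is not stated.

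XLOC_042293 had 4072 in low-dose seeds and the same in mock seeds. XLOC_001019 had 879.9 in high-dose seeds, again repeated in the mock list, and in radicles it had 153.7 at the high dose and 27.3 in mock, a log2 of 2.45. XLOC_030088 was listed at 0 in low-dose seeds, again repeated in the mock list, and in radicles it had 0 in mock and 965.5 at the high dose. Because the seed value is a repeat, the level of this locus in mock seeds is not known, and it was not on the other lists. XLOC_030582, the locus listed for seeds alone, had 1.47 in low-dose seeds with the same value in the mock list, near the lowest values of these lists. The 4 loci listed in both tissues were above mock in high-dose radicles, as were 85.3% of all XLOC loci on that list and 36.4% of MELO3C identifiers. For XLOC_030088, at 0 in mock radicles, no lower value is possible. Seed and radicle values were not compared as levels, because the scaling between tissues is not stated.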

How the data were processed

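Groups were taken from the sample titles. The authors deposited 6 lists with 1 value per identifier and group, named FPKM, which were treated here as a signal of unstated scale because low values recur across identifiers; the lists hold no read counts, so depth and counting error are unknown. Per the methods of the study, reads were aligned to the melon cv. DHL92 v4 genome with the provider's pipelines, and the processing notes name Bowtie2 and SAMtools; the assembler behind the XLOC loci is not given in the sources used here. Whether the mock value of a locus was scaled together with each dose list is also not stated. Values under 1e-10 were taken as 0. For each locus, log2 of treated over mock was taken with a pseudocount of 1 and limits of 1 and 2, and MELO3C identifiers of the same list served as background. A test across libraries had been planned for values per library, which the lists do not hold, so none was run and no p-value is given.

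The members, lists and naming rule were chosen with earlier results of these data known. Loci named are all those on both radicle dose lists, on the low-dose radicle list or on a seed list, the 10 highest and 10 lowest by log2 at the high dose among those above 0 in both groups, the 5 with the highest high-dose value among those at 0 in mock, and the 10 highest in mock, 54 in all; the rest were named after their values were seen. Alternatives were pseudocounts of 0.1 and 10, minimum values of 10 and 100, leaving out loci at 0, median ratio scaling, quantile normalization, a log2 limit of 2, levels from the larger value, values under 0.1 taken as 0, and a tolerance of 0.001. The counting step was run on mock values multiplied or divided by a fixed factor, which checks its arithmetic and not the reported counts. Python 3.11.15, numpy 2.4.6, pandas 2.3.3 and matplotlib 3.10.9 were used.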

Additional observations from a re-analysis of the deposited data

How the results depend on the processing

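No paired analysis was possible because each list holds 1 value per group and no replicate. For the same reason no library could be left out. Of 58 alternative values of the main results, 49 stayed within 1.5 times of the reported value and 9 moved further. The count of 49 is no measure of stability, because some of these values could not differ. A pseudocount or a log2 limit leaves a share above mock as it is, and a minimum of 10 left out no XLOC locus. The limit is also wide: a fall from 85.3% to 60.1% above mock at the high dose counted as within it. In high-dose radicles, a minimum of 100 left 67 higher XLOC loci, quantile normalization 41 higher and 5 lower, median ratio scaling 2 lower, and a log2 limit of 2 left 2 lower. In low-dose radicles, median ratio scaling gave 12 higher loci, quantile normalization 7 higher, and a log2 limit of 2 left 1 lower. Fewer loci under a minimum or a stricter limit follow from the setting itself; the cause of the other shifts was not tested. Without the 5 loci above 20000 in mock, chosen after the values were seen, the ratio of XLOC sums was 1.12.

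Median ratio scaling removes a median log2 of -0.79 from the high-dose list and 1.66 from the low-dose list, so that every low-dose locus between 0 and 1.66 changes sign: XLOC_049624 at -0.45, XLOC_041198 and XLOC_023447 at -0.20, XLOC_047399 at -0.16, XLOC_008156 at -0.084 and XLOC_019730 at -0.053. At the high dose 3 loci turned to above mock, XLOC_030783 at 0.03, XLOC_037717 at 0.05 and XLOC_032376 at 0.14. Quantile normalization turned 40 XLOC loci of the high-dose list and 2 of the low-dose list to below mock. Of the loci named by the rule and above 0 in both groups, these were XLOC_014336 at -0.30 and XLOC_037886 at -0.12 at the high dose, and XLOC_040066 at -0.24 at the low dose. Quantile normalization moved 19 further values of 42 by over 1.5 times at the high dose and 18 of 19 at the low dose. Neither scaling is known to suit lists of identifiers selected for a difference. Median ratio scaling moved all 42 values at the high dose and 13 of 19 at the low dose beside the 6 that turned. With a pseudocount of 10, 11 of 42 named loci moved by over 1.5 times at the high dose and 1 of 19 at the low dose, none with a change of direction.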

Other observations

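The numbers in the XLOC identifiers ran from 325 to 50347, with a median gap of 173 between successive members, so the listed loci were spread over the numbering. A gap of at most 3 was found in 3 pairs, looked for after the values were seen. XLOC_004323 and XLOC_004324 were both higher in high-dose radicles, with 32.4 and 71.1 at the high dose and 2.20 and 3.31 in mock. XLOC_023916 and XLOC_023918 were also both higher, with 343.6 and 137.2 at the high dose and 91.6 and 37.4 in mock, which is a log2 of 1.90 and 1.85. XLOC_020406 and XLOC_020409 differed in direction on the deposited values, with 748.1 and 34.4 at the high dose and 2314 and 1.65 in mock. After quantile normalization XLOC_020409 was below mock, at -0.13, as was XLOC_004323, at -0.41. The files give no coordinates, so whether loci with neighbouring numbers are neighbours in the genome was not tested.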
